A study of Mus musculus with 3 samples.

Results

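Mouse embryonic stem cells that had received a low dose of FGF4 were ordered by how strongly they expressed 5 early target genes of the kinase ERK, and the strongest 25% were set against the weakest 25%. The response of a cell was its summed count of unique molecular identifiers (UMIs) for Etv4, Spry4, Spry2, Dusp6 and Dusp4 per 10000 UMIs. Of the 874 cells of the 5 ng/ml library, 706 were intact, meaning at most 10% of UMIs from mitochondrially encoded genes and a total within 3-fold of the library median. The strong group was the 177 cells at or above the 75th percentile of response and the weak group the 177 at or below the 25th, so 354 of the 2222 cells of the series were compared. The groups were chosen by the counts of these 5 genes, which are left out of every comparison of strong with weak cells; their own counts are given as a description.

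FGF4 binds FGF receptors on the cell surface and activates the RAS, RAF, MEK and ERK kinase cascade. Among the first genes that ERK induces are transcription factors of the ETS family such as Etv4, and inhibitors that feed back on the cascade, the Sprouty proteins upstream and the dual-specificity phosphatases Dusp4 and Dusp6 on the kinases themselves. In embryonic stem cells ERK signalling moves cells out of naive pluripotency, the state held by factors such as Nanog and Tfcp2l1, towards the formative state that precedes lineage choice.

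All cells of the study were E14tg2a embryonic stem cells with the genotype Fgf4 -/-, so the ligand in the medium replaced the one the cells could not make, although other FGFs they may express were not removed. They were seeded in serum medium with LIF and then held for 24 h in serum-free N2B27 with the GSK3 inhibitor Chiron and 1 µg/ml heparin, with FGF4 at 0, 5 or 50 ng/ml. Each dose was a single 10x Genomics 3' library, with 359, 706 and 798 intact cells in the order of rising dose. Strong and weak cells were therefore cells of 1 culture, not replicates, and no p-value was computed. Values are UMIs summed over a group of cells and scaled to the UMIs of a gene per 1000000 UMIs (CPM), with 95% intervals that cover counting error only. The labels do not say whether the line is a single clone, and the 3' counts of Fgf4 check nothing about its deletion, because the deleted stretch is not given in the labels.

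The libraries held 42726514 to 81409975 UMIs, and no cell barcode was shared between them. Strong cells had a median of 100495 UMIs (37431 to 248517) and weak cells 92021 (33668 to 205020), against 109945 without FGF4. With each cell thinned to 30000 UMIs, the median number of detected genes was 5400 in strong and 5347 in weak cells. Mitochondrially encoded genes made up a median of 5.14% of UMIs in strong and 5.41% in weak cells, and 3 strong and 1 weak cell were called doublets. The share of cells in the S-phase class was 40.1% (exact binomial 95% interval 32.8 to 47.7) in strong and 49.2% (41.6 to 56.8) in weak cells. The share in the G2 and M class was 39.5% in strong and 34.5% in weak cells.

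Both groups carried the markers of embryonic stem cells. The summed level of Pou5f1, Sox2, Sall4, Zfp42 and Dppa5a was 4008 CPM in strong cells, 4511 in weak cells and 4460.4 without FGF4. Dppa5a alone had 2598 CPM in strong and 3135 CPM in weak cells. Pou5f1 (404 against 368 CPM) and Sox2 (337 against 305) were higher in strong than in weak cells. Sall4 (125 against 129) and Zfp42 (544 against 574) were lower. Of 9 fibroblast markers 5 had no UMI in either group, and the summed level of the 9 was 5.01 CPM in strong and 3.70 in weak cells. The 5 primitive endoderm markers summed to 0.905 CPM in strong and 1.099 in weak cells. Of 4 markers of the rare 2-cell-like state, 2 had no UMI in strong cells and 1 had none in weak cells, with 5 UMIs in all in strong and 188 in weak cells. No strong cell and 2 weak cells had 5 or more of these UMIs.

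The response formed a continuum at 5 ng/ml. It ranged from 1.67 to 5.63 per 10000 UMIs in strong cells with a median of 2.10, and from 0 to 0.682 in weak cells with a median of 0.402, while cells without FGF4 had a median of 0.0879 and reached 1.06. The strong cell closest to its threshold had 1.673 and the first cell outside it 1.670, and the weak cell closest to its threshold had 0.6817 and the first cell outside it 0.6824. These values chose the groups and are given as a description. In raw counts a strong cell held a median of 22 UMIs of the 5 genes and a weak cell 4, against 1 without FGF4. Etv4 supplied 39.8% of those UMIs over all intact cells at 5 ng/ml, Spry2 33.4%, Spry4 11.2%, Dusp6 10.1% and Dusp4 5.58%, so the split rested mostly on Etv4 and Spry2. No cell of the 359 without FGF4 reached the response of the strong group, which allows a share of up to 0.836% of such cells, and 61.3% of the cells at 50 ng/ml did. At or below the weak threshold lay 98.9% of the cells without FGF4 and 6.02% of the cells at 50 ng/ml. Nearly all untreated cells thus lay within the range of the weak responders.

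**Figure D1:**
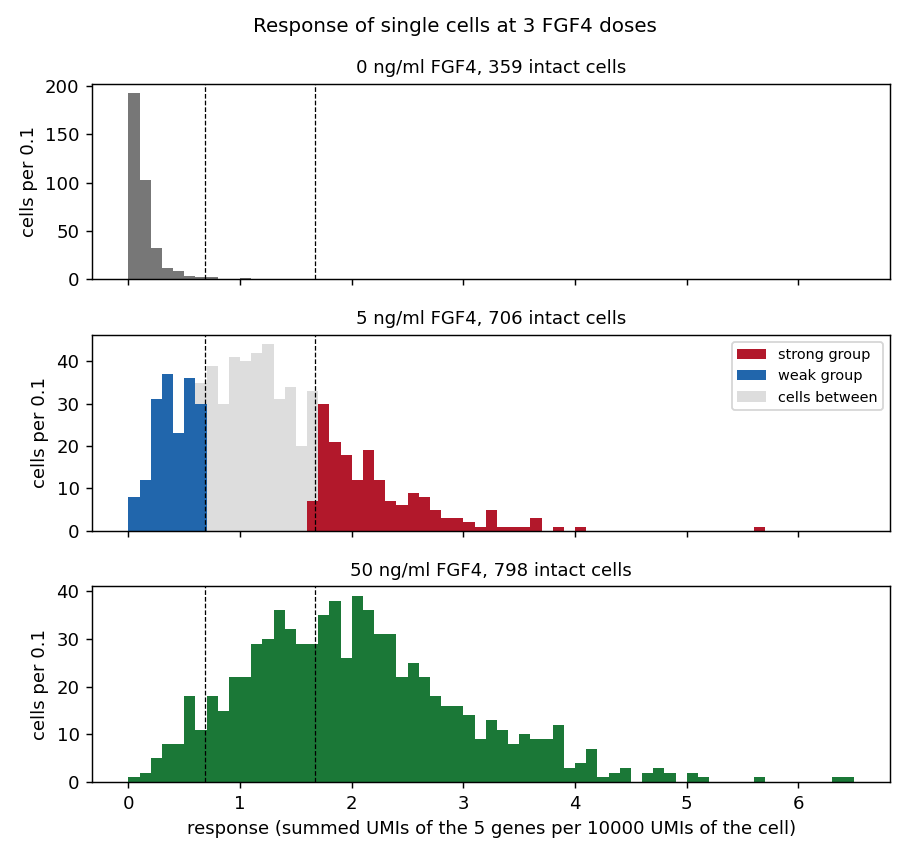
Histograms of the response, the summed UMIs of Etv4, Spry4, Spry2, Dusp6 and Dusp4 per 10000 UMIs of the cell (x axis), as numbers of intact cells per bin of 0.1 (y axis), in the libraries at 0, 5 and 50 ng/ml FGF4 from top to bottom. At 5 ng/ml red marks the strong and blue the weak group, grey the cells between them, and dashed lines mark both thresholds in all panels; strong cells have a median of 2.10, weak cells of 0.402 and cells without FGF4 of 0.0879.

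Genes that respond to FGF4 were taken from the other 2 libraries, which hold no strong or weak cell. FGF4-raised genes were the 112 with at least 2-fold higher CPM at 50 ng/ml than without FGF4 and at least 20 CPM at 50 ng/ml, and FGF4-lowered genes the 118 with the opposite difference and at least 20 CPM without FGF4. A gene was called higher or lower in strong cells when it differed by at least 25% of the lower group and the interval of the ratio excluded 1. Without a limit on level, 72 of the 112 raised genes were called higher in strong than in weak cells and 1 lower, where 4.3% of all 17260 genes with a UMI in both groups were called higher. The ratio lay above 1 for 105 of the 112, with a median log2 ratio of 0.45. Of the 117 lowered genes with a UMI in both groups 93 were called lower and 0 higher, where 6.02% of the 17260 genes were called lower. The ratio was below 1 for 115 of all 118, counting the gene without a UMI in strong cells.

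With a limit of 20 CPM in the higher of the groups, 68 of the 105 raised genes that met it were called higher, where 221 of all 5594 genes or 3.95% were, and 50 of the 61 lowered genes were called lower, where 205 or 3.66% were. Some members met the limit in 1 group alone, which favours a call: 20 raised genes in strong cells only and 1 in weak cells only, and 17 lowered genes in weak cells only. Among genes at 20 CPM in both groups 49 of 84 raised genes were higher, where 3.05% of all 5238 such genes were, and 35 of 44 lowered genes were lower, where 2.63% were. The other 7 raised and 57 lowered genes stood below the limit in both groups. The median log2 ratio of all 5594 genes was 0.04 and the middle 95% of them lay between -0.38 and 0.39. Among raised genes at the limit the median was 0.46 and among lowered genes -0.52. When the groups were drawn within 5 classes of total UMIs 70 raised genes were higher and 50 lowered genes lower, and when they were drawn within cycle classes 76 and 53. With the cells that had 5 or more 2-cell-like UMIs left out, the numbers were 67 and 52. With the response computed from cells thinned to 30000 UMIs, so that all cells had equal depth, ties between whole counts widened the groups to 232 strong and 284 weak cells. In these groups 47 raised genes were higher and 32 lowered genes lower, and of all genes 81 were called higher and 89 lower.

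**Figure D2:**
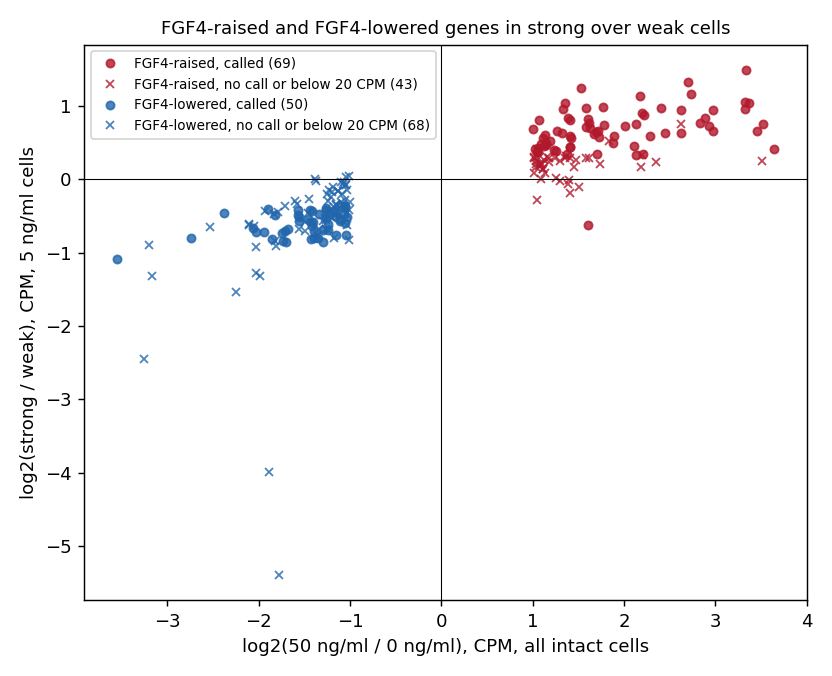
Each point is an FGF4-raised (red) or FGF4-lowered (blue) gene, with its log2 ratio of CPM between all intact cells at 50 and 0 ng/ml (x axis) and between strong and weak cells at 5 ng/ml (y axis); circles were called at 20 CPM and crosses were not, and a gene with no UMI in strong cells is drawn as if it had 3. Of the raised genes 105 of 112 lie above the horizontal line and of the lowered genes 115 of 118 lie below it, while Rhox5 is the red circle that lies below.

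The 12 raised genes with the largest difference between 50 and 0 ng/ml all had more transcript in strong than in weak cells, by 1.19-fold to 2.81-fold, and 11 of them were called. Dnmt3l, the cofactor that stimulates the enzymes of de novo DNA methylation, had 152 CPM in strong cells and 114 in weak cells, against 13.7 without FGF4. Its weak cells already stood 8.27-fold (7.53 to 9.09) above the cells without FGF4, and strong cells only 1.34-fold (1.26 to 1.42) above weak ones. Gja1, the gene of connexin 43 in gap junctions, had 88.5 CPM in strong cells, 52.4 in weak cells and 6.73 without FGF4. Lef1, a transcription factor of the Wnt pathway, had 98.0 CPM in strong cells, 50.7 in weak cells and 8.87 without FGF4, a strong over weak ratio of 1.93 (1.78 to 2.10). Slc7a7, an exporter of cationic amino acids, had 84.8 CPM in strong cells, 40.9 in weak cells and 8.73 without FGF4.

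Utf1, a chromatin factor of pluripotent cells, had 330.1 CPM in strong cells, 210.1 in weak cells and 45.7 without FGF4. Bst2, the antiviral membrane protein tetherin, had 46.9 CPM in strong cells and 22.9 in weak cells, against 4.15 without FGF4. Sox11, a transcription factor of neural and other progenitors, had 43.2 CPM in strong cells, 26.2 in weak cells and 6.02 without FGF4. The strong over weak ratio was 1.59 for Enpp3, 1.92 for the zinc transporter Slc39a14 and 1.79 for Myrf, each above 20 CPM in strong but not in weak cells. Peg10, an imprinted gene derived from a retrotransposon, was the one without a call, at 37.3 CPM in strong and 31.3 in weak cells, where 45.5% of its weak-cell UMIs came from 5 cells. The share of cells with a Peg10 UMI at 30000 UMIs per cell was 53.7% in strong and 31.6% in weak cells, against 5.85% without FGF4.

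Some raised genes did not separate the groups. Epcam, an epithelial adhesion molecule, had 100.7 CPM in strong cells and 101.5 in weak cells, a ratio of 0.992 (0.929 to 1.06), and both stood above the 42.2 CPM without FGF4. Over the 36 raised genes without a call the ratio ran from 0.825 to 1.248. Their weak cells stood a median of 1.92-fold above the cells without FGF4, close to the 1.99-fold of the 68 called genes, while at 50 ng/ml the 36 stood 2.26-fold and the 68 stood 3.25-fold above no FGF4. Rhox5, an X-linked homeobox gene, was the raised gene that was lower in strong cells, at 72.2 CPM against 111 CPM in weak and 38.2 CPM without FGF4, and 41.6% of its strong-cell UMIs came from 5 cells.

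The 12 lowered genes with the largest difference between 50 and 0 ng/ml all had an interval below 1 for strong over weak, although 8 of them were under 20 CPM in both groups. Calcoco2, an autophagy receptor also known as NDP52, had the largest difference of the 118. It had 17.7 CPM in strong cells and 37.8 in weak cells, against 186 without FGF4, and was 2.13-fold lower (1.86 to 2.44) in strong than in weak cells. Hes1, an effector of Notch signalling, had 14.8 CPM in strong cells and 25.7 in weak cells, against 84.4 without FGF4. Kit, the receptor of stem cell factor, had 25.8 CPM in strong cells, 40.9 in weak cells and 92.4 without FGF4. Trpm1, a cation channel gene, had 1.76 CPM in strong and 9.60 in weak cells, against 25.9 without FGF4. Of its weak-cell UMIs, 55.4% came from 5 cells.

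Egr1, an immediate early transcription factor that ERK induces within minutes of stimulation, belonged to the lowered genes. It had 12.1 CPM in strong cells and 18.5 CPM in weak cells, against 41.0 CPM without FGF4, so the cells with most Etv4 and Spry2 transcript had the least Egr1. At 50 ng/ml the strong over weak ratio of Egr1 was 1.248, on the other side of 1 and below the level limit. Among the 118 lowered genes the 3 with a ratio above 1 were Galnt2, Myo18a and Stag1, at 1.00, 1.02 and 1.03, chosen for mention after their values were seen.

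Weak responders also stood apart from untreated cells. In weak cells 83 of the 85 raised genes at 20 CPM, and 110 of all 112 without that limit, were higher than in the library without FGF4, where 7.61% of all 5649 genes were called higher. Of the 118 lowered genes 117 were lower, where 9.19% of all genes were. The median log2 ratio over all members was 0.99 for raised and -0.85 for lowered genes, but the library without FGF4 also served to choose the lists, and each dose was 1 library, so dose and library cannot be told apart here. Summed over the 112 raised genes, strong cells had 11047 CPM and weak cells 8101, against 4010 without FGF4 and 11440 at 50 ng/ml. Summed over the 118 lowered genes the order was the reverse, at 3448 CPM in strong cells and 4926 in weak cells, against 9186 without FGF4 and 3347 at 50 ng/ml.

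The intact cells at 5 ng/ml were divided into 4 response groups of 176 or 177 cells, of which the first is the weak and the fourth the strong group. Across them both lists ran in steps. The median raised gene stood at a log2 ratio to no FGF4 of 0.99 in the weakest group, 1.17 in the second, 1.30 in the third and 1.43 in the strongest, beside 1.41 at 50 ng/ml. The median lowered gene stood at -0.85, -0.99, -1.16 and -1.30 in the same order, beside -1.34 at 50 ng/ml. Of the 112 raised genes 71, and of the 118 lowered genes 66, followed the order of all 4 groups without exception. The share of all genes with such an order was not computed, so these counts have no background beside them. Expressed as a share of the log2 difference at 50 ng/ml, the median raised gene had covered 67.5% in weak and 96.8% in strong cells, and the median lowered gene 59.1% in weak and 95.7% in strong cells. The strong cells of the low dose thus lay near the average of the cells at the high dose. In them 43 of the 112 raised and 43 of the 118 lowered genes were further from no FGF4 than at 50 ng/ml.

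**Figure D3:**
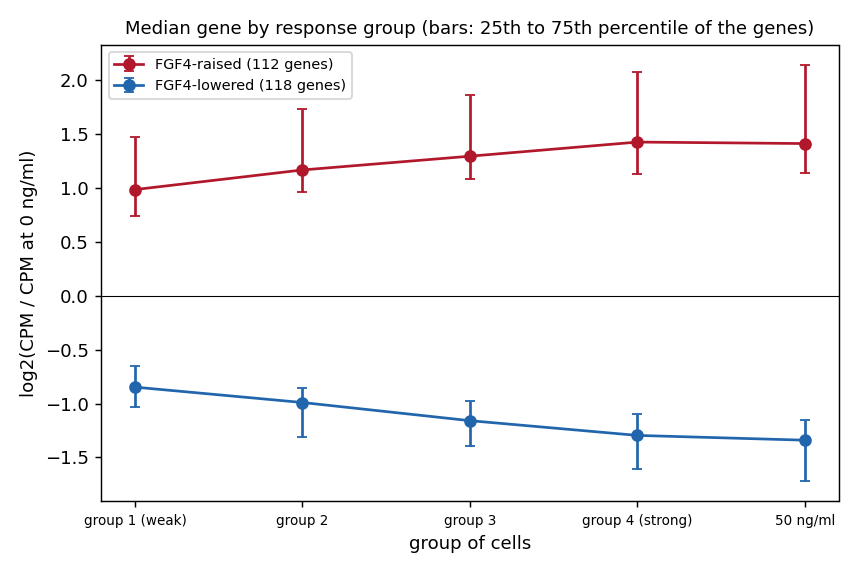
Median log2 ratio of CPM to the library without FGF4 (y axis) over the 112 FGF4-raised (red) and 118 FGF4-lowered genes (blue) in the 4 response groups at 5 ng/ml and in all intact cells at 50 ng/ml (x axis); bars span the 25th to 75th percentile of the genes. The raised median steps up through 0.99, 1.17, 1.30 and 1.43 and the lowered median steps down through -0.85, -0.99, -1.16 and -1.30.

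The same order held in single cells. With 30000 UMIs per cell, the raised genes summed to a median of 333 UMIs in strong cells (238 to 464) and 245 in weak cells (120 to 404), against 119 (62 to 211) without FGF4. The lowered genes summed to 100 (35 to 200) in strong cells and 143 (56 to 416) in weak cells, against 271 (137 to 512) without FGF4. No strong cell and 49 of the 177 weak cells, 27.7%, had a raised sum no higher than the highest cell without FGF4. For the lowered sum, 31 strong cells and 100 weak cells were no lower than the lowest cell without FGF4. Both held at once for 41 weak cells, or 23.2%, and for no strong cell. Over the 706 intact cells the response had a Spearman correlation of 0.46 with the raised sum and -0.34 with the lowered sum, as a description of cells from 1 library.

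The widest ratio among the named genes that were lower in strong cells was that of Klhl13, which is in neither FGF4 list. This gene encodes a substrate adaptor of the CUL3 ubiquitin ligase and lies on the minus strand of the X chromosome (GRCm38 chrX:23219271-23365082). It had 16.1 CPM (14.3 to 18.0) in strong cells and 106.3 CPM (101.5 to 111.3) in weak cells, against 34.4 CPM without FGF4. Strong cells were thus 6.61-fold lower (5.85 to 7.49) than weak cells and stood on the other side of the untreated level. A Klhl13 UMI was found at 30000 UMIs per cell in 32.8% of strong and 63.8% of weak cells, against 44.6% without FGF4, and 5 or more UMIs in 1.13% of strong and 26.6% of weak cells, against 6.41% without FGF4. No cell type that should lack Klhl13 was at hand to set a background for these shares. The 5 weak cells with most Klhl13 supplied 16.5% of its UMIs, so the level did not rest on a few cells.

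In both libraries with FGF4, stronger responders had less Klhl13. At 5 ng/ml it had 106.3, 52.6, 35.0 and 16.1 CPM from the weakest to the strongest response group, and at 50 ng/ml, with groups drawn in that library, 106.7, 45.4, 30.7 and 28.6 CPM. Without FGF4 the 4 levels were 29.1, 45.1, 29.8 and 37.4 CPM and followed no steady order. There the strongest group, at 37.4 CPM (33.8 to 41.3), was called higher than the weakest, at 29.1 CPM (26.2 to 32.2). This call was in the opposite direction to that at 5 ng/ml. Over the whole libraries the gene was at 51.6 CPM at 50 ng/ml, which is 1.50-fold above no FGF4, so it was in neither FGF4 list. The difference between libraries in how the gene tracked the response was not tested.

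**Figure D4:**
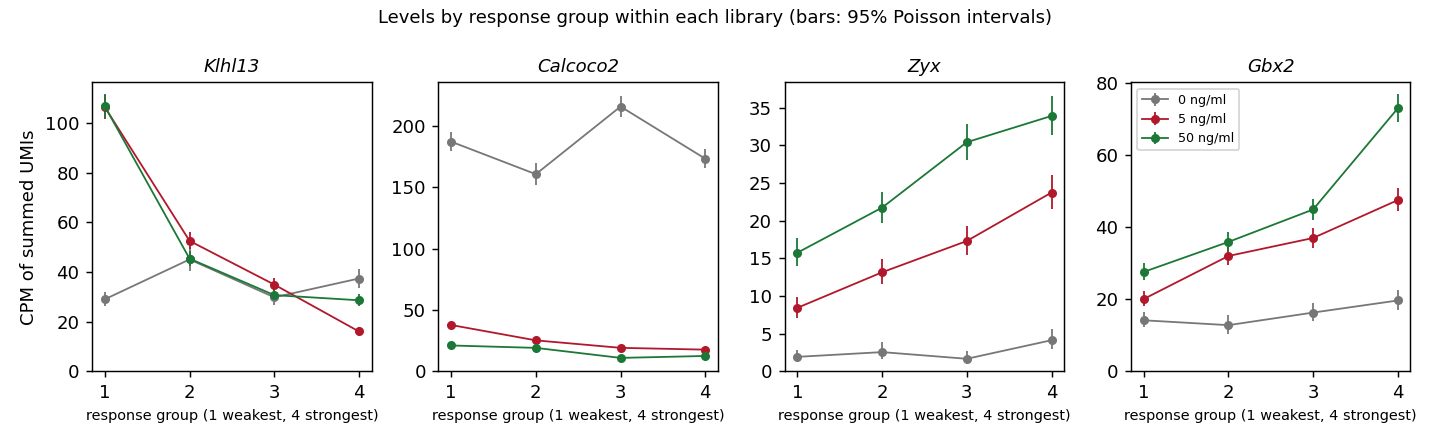
CPM of summed UMIs (y axis) of Klhl13, Calcoco2, Zyx and Gbx2 in the 4 response groups from weakest to strongest (x axis), drawn within the libraries at 0 (grey), 5 (red) and 50 ng/ml FGF4 (green), with 95% Poisson intervals; without FGF4 ties make the groups unequal, at 55 to 125 cells. Klhl13 has 106.3, 52.6, 35.0 and 16.1 CPM at 5 ng/ml. Without FGF4 its levels follow no steady order, and the strongest group lies above the weakest. Zyx and Gbx2 step up with the response at 5 and 50 ng/ml.

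Of the 12 named genes that were lower in strong cells, 5 belonged to the FGF4-lowered list, and 9 were also called lower in the strong group at 50 ng/ml, the other 3 being below the level limit there. Of all 205 genes called lower, 24.4% were FGF4-lowered and 52.2% were called lower at 50 ng/ml, where 3.4% of all genes were. Nodal, the TGF-beta family ligand of early patterning, had 24.6 CPM in strong cells and 46.3 in weak cells, against 42.0 without FGF4. Weak cells were thus 1.103-fold (1.01 to 1.20) of the untreated level, and the strong cells were 1.89-fold lower (1.68 to 2.12) than weak cells. Lgals3, which encodes the carbohydrate-binding galectin 3, had 14.5 CPM in strong cells and 27.5 in weak cells, against 14.6 without FGF4. Hormad1, a protein of the meiotic chromosome axis, had 15.9 CPM in strong cells, 29.0 in weak cells and 15.7 without FGF4. For Lgals3 and Hormad1 the strong cells were therefore close to the untreated level and the weak cells above it.

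Lima1, an actin-binding protein also known as EPLIN, had 99.3 CPM in strong cells and 175 CPM in weak cells, against 274 CPM without FGF4. Jam2, a junctional adhesion molecule, had 39.5 CPM in strong cells and 71.6 in weak cells, against 134 without FGF4. Dppa3, a maternal factor that protects methylated DNA in the early embryo, had 25.1 CPM in strong cells, 45.5 in weak cells and 84.7 without FGF4. These 3 genes had the order of strong below weak below untreated, as did Btg2, which restrains proliferation, the lysosomal enzyme Glb1 and the peptidase Mme, 1.79-fold to 1.82-fold lower in strong than in weak cells. Neat1, the RNA of paraspeckles, had 7.30 CPM in strong and 21.5 in weak cells, where 5 cells supplied 48.9% of its weak-cell UMIs. Klhl13, Neat1, Calcoco2, Lgals3, Btg2, Glb1, Hormad1 and Mme met the limit of 20 CPM in weak cells only, which favours a call.

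Of the 12 named genes that were higher in strong cells, 8 belonged to the FGF4-raised list, and 9 were also called higher in the strong group at 50 ng/ml, where Tulp3 was lower and 2 were below the level limit. Of all 221 genes called higher, 30.8% were FGF4-raised and 59.7% were called higher at 50 ng/ml, where 6.78% of all genes were. Zyx, which encodes the focal adhesion protein zyxin, had 23.8 CPM (21.6 to 26.1) in strong cells and 8.45 CPM (7.13 to 9.93) in weak cells, against 2.54 CPM without FGF4. At 30000 UMIs per cell a Zyx UMI was found in 46.3% of strong and 20.9% of weak cells and in 5.29% of untreated ones. Gbx2, a homeobox factor that supports the naive state, had 47.5 CPM (44.4 to 50.7) in strong cells and 20.1 CPM (18.0 to 22.3) in weak cells, against 15.8 CPM without FGF4. Weak cells thus stood 1.27-fold (1.11 to 1.45) above no FGF4 for Gbx2, and strong cells 2.37-fold (2.09 to 2.69) above weak cells. Of the 12, Pmaip1 had the widest ratio that did not come from a few cells, at 20.02 CPM in strong and 5.90 CPM in weak cells. It encodes NOXA, which promotes cell death by binding BCL2 family proteins. Ptcra, Pmaip1, Zyx, Cntfr, Mcc, Tmem80 and Pim2 met the limit of 20 CPM in strong cells only, which favours a call.

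Cntfr, a receptor subunit for ciliary neurotrophic factor that signals through the same gp130 chain as LIF receptor, had 25.7 CPM in strong cells and 10.2 in weak cells, against 3.86 without FGF4. Ccnd2, the G1 cyclin D2, had 58.9 CPM in strong cells, 26.4 in weak cells and 7.78 without FGF4. Mcc, a negative regulator of beta-catenin signalling, had 36.3 CPM in strong cells, 16.6 in weak cells and 7.61 without FGF4. Pim2, a serine and threonine kinase, had 25.03 CPM in strong cells and 12.2 in weak cells, against 9.29 without FGF4. All 4 had the order of strong over weak over untreated.

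A few cells carried much of the transcript behind 3 other ratios. Ptcra, the pre-T-cell receptor alpha chain, had 25.5 CPM in strong and 3.47 in weak cells, but 5 cells supplied 85.2% of its strong-cell UMIs, and the share of cells with a UMI was 9.04% in strong and 9.60% in weak cells. Tulp3, which carries receptors into cilia, had 62.5% of its strong-cell UMIs in 5 cells. Tmem80 had 66.3% of its strong-cell and 73.2% of its weak-cell UMIs in 5 cells. These 3 ratios rest largely on those cells.

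**Figure D5:**
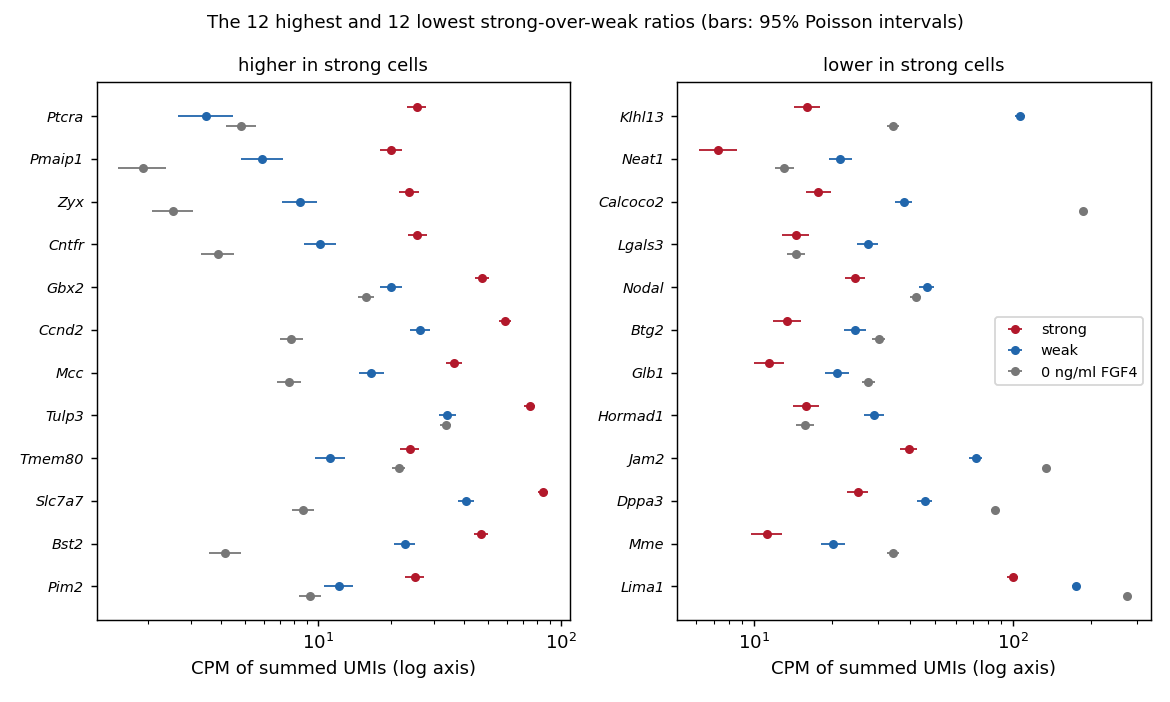
CPM of summed UMIs on a log axis (x axis) of the 12 genes with the highest (left) and the 12 with the lowest (right) strong over weak ratio among called genes, in strong cells (red), weak cells (blue) and all intact cells without FGF4 (grey), with 95% Poisson intervals. Klhl13 has 16.1 CPM in strong and 106.3 CPM in weak cells, and Zyx 23.8 CPM in strong and 8.45 CPM in weak cells.

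The sequences before the start sites of 4 of these genes are shown, 2 in each direction. All 4 have a single start site in RefSeq and at most 30% of UMIs in 5 cells. They are examples and not the 2 genes with the widest ratio in each direction. Each is the 250 bases before the start on the coding strand, 5′ to 3′, from RefSeq on GRCm38.p6, and capitals mark matches on either strand to the ETS core CCGGAA or to the AP-1 motif TGAGTCA, which do not overlap each other.
Zyx (chr6:42349578-42349827, plus strand): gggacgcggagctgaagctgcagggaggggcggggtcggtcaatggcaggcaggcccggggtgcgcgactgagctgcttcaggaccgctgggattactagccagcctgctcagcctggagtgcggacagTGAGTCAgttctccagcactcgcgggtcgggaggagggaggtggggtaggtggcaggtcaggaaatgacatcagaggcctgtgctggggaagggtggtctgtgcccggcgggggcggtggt
Gbx2 (chr1:89931177-89931426, minus strand): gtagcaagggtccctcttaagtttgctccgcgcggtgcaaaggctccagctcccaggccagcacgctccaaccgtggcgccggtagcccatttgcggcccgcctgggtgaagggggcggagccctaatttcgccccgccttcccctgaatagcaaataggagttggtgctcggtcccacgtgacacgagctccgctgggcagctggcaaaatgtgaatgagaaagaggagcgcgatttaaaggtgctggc
Lgals3 (chr14:47373610-47373859, plus strand): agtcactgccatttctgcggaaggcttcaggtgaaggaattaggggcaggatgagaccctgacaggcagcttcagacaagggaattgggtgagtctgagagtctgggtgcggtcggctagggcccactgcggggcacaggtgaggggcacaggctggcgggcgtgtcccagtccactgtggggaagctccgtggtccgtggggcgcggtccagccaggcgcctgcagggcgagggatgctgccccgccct
Nodal (chr10:61417722-61417971, plus strand): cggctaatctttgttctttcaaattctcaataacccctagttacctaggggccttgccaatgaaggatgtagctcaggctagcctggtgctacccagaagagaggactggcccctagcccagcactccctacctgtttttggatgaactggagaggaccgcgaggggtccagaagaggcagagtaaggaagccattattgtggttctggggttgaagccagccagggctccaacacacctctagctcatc
Zyx had 1 match, a TGAGTCA that began 121 bases before the start, and the windows of Gbx2, Lgals3 and Nodal had none. Among all 32851 such windows of RefSeq, 12.0% held the ETS core and 4.46% the AP-1 motif. Of the 18 windows of 9 named genes that were higher in strong cells, 0 held the ETS core and 1 held the AP-1 motif. Of the 15 windows of 8 named genes that were lower, 3 held the ETS core, in Glb1 and Klhl13, and 2 held the AP-1 motif, in Glb1 and Mme. These are matches of letters in a short window, looked for after the genes had been chosen.

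Of 16 other known targets of ERK 7 reached 20 CPM, and 5 of these were higher in strong cells and none lower, beside 3.95% higher and 3.66% lower over all genes. The median log2 ratio of the 7 was 0.56, and Etv1 and Il17rd reached the limit in strong cells only. Epha2, an ephrin receptor, had 53.7 CPM in strong cells and 27.7 in weak cells, against 19.1 without FGF4, a ratio of 1.94 (1.74 to 2.17). The ERK pathway inhibitors Spred1 and Spred2 had ratios of 1.76 and 1.28, the FGF receptor antagonist Il17rd 1.48, and the ETS factor Etv1 1.50. Etv5, the closest relative of Etv4, had 217 CPM in strong and 209 in weak cells, against 186 without FGF4, a ratio of 1.04 (0.996 to 1.09). Ccnd1, the cyclin D1 gene, had a ratio of 1.12 (1.07 to 1.18), under the limit on fold. The only immediate early gene at the limit was Ier2, at 89.6 CPM in strong and 79.9 in weak cells.

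Of 17 genes at the limit for adaptors, RAS proteins and kinases of the cascade itself, 1 or 5.88% was called higher, near the 3.95% of all genes. This was Braf, at 32.9 CPM in strong and 25.5 CPM in weak cells, a ratio of 1.29 (1.14 to 1.46). The other 16 had ratios of 0.906 to 1.245, among them Mapk3 at 1.05 and Map2k1 at 1.00. Fgfr1, the only FGF receptor gene at the limit, had 45.3 CPM in strong cells, 40.4 CPM in weak cells and 57.8 without FGF4. Fgfbp1, a secreted carrier of FGFs, was higher in strong cells at 27.2 CPM against 17.5 CPM in weak cells and met the limit in strong cells only. Transcript assigned to Fgf4 was lower in strong cells, at 19.8 CPM against 27.4 CPM in weak cells, with 51.9 CPM without FGF4, and met the limit in weak cells only.

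Naive pluripotency genes split into both directions. Of 14 at the limit 5 were lower in strong cells and 3 higher, beside 3.66% lower and 3.95% higher over all genes, with a median log2 ratio of -0.27. Nanog had 120.6 CPM in strong cells and 179.7 in weak cells, against 280.4 without FGF4, a ratio of 0.671 (0.636 to 0.709). Tfcp2l1 had a ratio of 0.717, Tbx3 of 0.622, Klf2 of 0.784 and Dppa3 of 0.552. The 3 higher genes were Gbx2, Klf5 at 126 CPM in strong and 91.6 in weak cells, and Nr0b1 at 100.6 CPM in strong and 77.5 in weak cells. Esrrb had 57.8 CPM in strong and 70.0 CPM in weak cells, and Zfp42 had 544 CPM in strong and 574 in weak cells, both within 25%.

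Of 13 formative genes 6 reached the limit, and 5 of these were higher in strong cells, beside 3.95% of all genes. The median log2 ratio of the 6 was 0.45, and the other 7 were too low to be called. Tcf15, a factor of cells primed to leave naive pluripotency, had 85.9 CPM in strong cells and 43.7 in weak cells, against 18.2 without FGF4. The de novo DNA methyltransferases Dnmt3a and Dnmt3b had ratios of 1.40 and 1.27, beside Dnmt3l and Lef1. Zic2 was the one without a call, at 35.7 CPM in strong and 44.4 CPM in weak cells. Of 10 genes of pluripotency in general 3 were higher and none lower, beside 3.95% higher and 3.66% lower over all genes. The 3 were Utf1, Tdgf1 and L1td1, with ratios of 1.57, 1.36 and 1.35. The core factors Pou5f1 and Sox2 had ratios of 1.097 and 1.11.

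Signalling genes beyond FGF showed a mixed picture, beside 3.95% called higher and 3.66% called lower over all genes. Of 6 BMP pathway genes 2 reached the limit and were higher in strong cells, the target Id3 at 66.6 CPM against 36.3 CPM in weak and 15.5 CPM in untreated cells, and the ligand Bmp4 at 21.6 CPM against 13.9 in weak and 4.43 in untreated cells, which met the limit in strong cells only. Of 5 Nodal pathway genes at the limit, Nodal and its inhibitor Lefty1 were lower and the co-receptor Tdgf1 was higher. Lefty1 had 48.4 CPM in strong and 78.9 in weak cells. Of 6 Wnt targets at the limit 3 were higher, Lef1, Cdx1 and Sp5, and 1 was lower, the Wnt inhibitor Notum. Notum met the limit in weak cells only, and Axin2 had a ratio of 1.07 (0.964 to 1.18). Cdx1, a caudal homeobox factor, had 83.5 CPM in strong cells and 46.8 in weak cells, against 30.4 without FGF4. Of 3 LIF pathway genes at the limit, Cntfr was higher and Il6st, which encodes gp130, lower, each at the limit in 1 group alone. Il6st had 18.3 CPM in strong and 25.1 CPM in weak cells. Chiron, which activates the Wnt pathway, was present in all cultures.

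Of 48 genes of other lineages 7 reached the limit, and 1 of these was higher and 1 lower in strong cells, beside 3.95% higher and 3.66% lower over all genes. None of the 3 primitive endoderm genes at the limit was called, with Sparc at 53.5 CPM in strong and 58.8 CPM in weak cells. Sp5, the only gene of the primitive streak list at the limit, was higher at 50.7 CPM in strong and 30.8 CPM in weak cells. Tubb3, a neuronal tubulin, was lower, at 25.9 CPM in strong cells and 42.5 in weak cells, against 108 without FGF4. The trophectoderm gene Tfap2c had 30.5 CPM in strong and 33.9 CPM in weak cells.

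Of 12 imprinted genes at the limit 4 were higher and none lower in strong cells, beside 3.95% higher and 3.66% lower over all genes. Meg3, a noncoding RNA of the Dlk1-Dio3 domain, had 254.9 CPM in strong cells and 136.6 in weak cells, against 47.0 without FGF4, and Rian, another noncoding RNA of the same domain, had 81.9 CPM in strong cells, 48.8 in weak cells and 16.2 without FGF4. Cdkn1c, a cyclin-dependent kinase inhibitor, and Zdbf2 had ratios of 1.31 and 1.44.

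None of 15 nucleolar and Myc target genes and none of 38 S-phase genes at the limit was called, where 7.62% of all genes were called in either direction. Their ratios ran between 0.907 and 1.21 in the first list and between 0.826 and 1.19 in the second, so a count of 0 does not show that the genes were equal. Of 50 genes of G2 and M phase G2e3 was called, with a ratio of 1.36. Of 15 glycolysis genes Pdk1, which diverts pyruvate from mitochondria, was higher at 114 CPM in strong cells against 66.8 in weak and 14.9 in untreated cells, as was the glucose transporter Slc2a1 at 101.4 CPM against 71.9 in weak cells, and Pfkp was lower. None of 10 cholesterol synthesis genes was called, with a median log2 ratio of 0.18. Of 6 genes at the limit in the list of ATF4 targets 2 were higher, the stress regulators Atf4 and Atf5, with ratios of 1.31 and 1.49. Of 9 p53 targets Trp53inp1 was lower at 0.706. Over all genes 3.95% were called higher and 3.66% lower.

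The library at 50 ng/ml, split at its own percentiles, gave a comparison on other cells. There 74 of the 112 raised genes were higher in the 200 strongest responders, where 6.78% of all genes were, and 38 of the 48 lowered genes at the limit were lower, where 3.4% were. The lists were chosen with this library, so its counts describe only how its cells were spread. Of the 221 genes called higher at 5 ng/ml 132 were called higher and 3 lower at 50 ng/ml, and of the 205 called lower 107 were called lower and 2 higher. Expressed over the calls at 50 ng/ml, the shared genes were 35.2% of those higher and 56.9% of those lower. Without FGF4, 90 cells at the upper end of the response were set against the 125 cells with none of its UMIs. There 9 of 53 raised genes were higher, where 1.36% of all genes were, and 5 of 116 lowered genes were lower, where 0.574% were.

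Most called genes lay outside the FGF4 lists, but the lists were a small part of the genes tested. Of the 5594 genes at the limit 105 were FGF4-raised and 61 FGF4-lowered. Of the 221 genes higher in strong cells 68, or 30.8%, were FGF4-raised and 153 were in neither list. Of the 205 genes lower in strong cells 50, or 24.4%, were FGF4-lowered, 1 was FGF4-raised and 154 were in neither.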

How the data were processed

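The deposited matrices held UMI counts per gene and cell barcode, made by the authors with Cell Ranger 4.0.0 per the file headers. The genome was mm10 per the submitters' processing notes. How barcodes were called, and with which annotation reads were counted, is not given in the sources used here. Of 32285 gene identifiers 32158 matched GENCODE M21 (GRCm38).

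Counts were summed over the cells of a group and scaled to CPM, with exact Poisson intervals for levels, conditional binomial (Clopper-Pearson) intervals for ratios and exact binomial intervals for shares, all at 95% and for counting error only. PCR copies are collapsed in UMIs. A call needed 20 CPM in the higher group, a difference of at least 25% of the lower group and an interval without 1. Depth ran from 17283427 UMIs over the weak cells to 18777742 over the strong cells, and a gene with 0 UMIs was set to 3 for log2 ratios. Named genes were the 12 with the widest ratio in each direction among called genes, without predicted and ribosomal protein genes, the 12 with the largest difference between 50 and 0 ng/ml in each FGF4 list, and members of 27 gene lists at 20 CPM. The groups, the lists and the thresholds were chosen with earlier results of these data known. Cycle classes came from summed S-phase and G2 and M genes per 10000 UMIs. Cells at or below the median of both sums formed a class low in both. Each other cell went to the class whose sum, standardized over intact cells, was larger. Doublets were called with Scrublet as in scanpy 1.11.5 and kept. Cells were thinned with seed 1. Values of a few genes are not reported here. The intervals and calls were tested on simulated counts. Python 3.11.15, numpy 2.4.6, scipy 1.17.1 and pandas 2.3.3 were used.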

Additional observations from a re-analysis of the deposited data

Results flagged for a closer look

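Tulp3 was called in opposite directions in the libraries at 5 and 50 ng/ml. At 5 ng/ml it had 74.5 CPM in strong and 34.2 CPM in weak cells, a log2 ratio of 1.12, and at 50 ng/ml 27.1 CPM in the strong and 35.8 CPM in the weak group, a log2 ratio of -0.40. In strong cells 62.5% of its UMIs came from 5 cells, and in the weak group at 50 ng/ml 42.4% did. The difference between the doses was not tested, because each was 1 library.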

How the results depend on the processing

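Counts of called genes and medians of the FGF4 lists were recomputed under 26 alternatives planned for this comparison and 2 added after seeing the data, the limit of 20 CPM over pooled cells and the removal of cells with 5 or more 2-cell-like UMIs. Of 270 values of the main results 233 kept their size (counts within 1.5 times, medians within the counting interval of the middle member), 37 moved and 0 changed direction. A change of direction could be scored for medians only, not for counts. In the order of genes higher and genes lower over all genes, the limit of 5 CPM gave 522 and 619, 50 CPM gave 96 and 67, no limit 743 and 1039, 1.1-fold 1123 and 628, 1.5-fold 66 and 43, groups of 10% each 495 and 404, thinned response 81 and 89 (232 strong and 284 weak cells), and the 0 ng/ml library 76 and 32. Genes higher alone moved with all cells, to 365, and in the 50 ng/ml library, to 375. FGF4-raised genes higher in strong cells numbered 37 at 50 CPM, 44 at 1.5-fold and 9 in the 0 ng/ml library, and their median log2 ratio was 0.28 with thinned response and 0.045 in the 0 ng/ml library. FGF4-lowered genes lower in strong cells numbered 93 at 5 CPM and with no limit for genes with a UMI in both groups, 18 at 50 CPM, 23 at 1.5-fold, 32 with thinned response, 5 in the 0 ng/ml library and 31 for lists from 5 against 0 ng/ml. Their median log2 ratio was -0.72 for groups of 10% each, -0.34 with thinned response and -0.074 in the 0 ng/ml library. In weak cells against no FGF4, 43 raised genes were higher and 45 lowered genes lower at 50 CPM, and lists from 5 against 0 ng/ml gave a raised median of 1.18 and 74 lowered genes lower. The limits on level and fold alter how many genes can be called. For the other settings the cause was not tested. For the 44 named genes 637 of the values under 18 settings moved by less than the counting interval, 155 moved and 0 changed direction. A change of direction was scored only for genes with a call in strong over weak cells. Weak cells held 0 to 9 response UMIs each, so the order of weak cells is limited by depth. The 4 response groups, the sums per cell and the promoter matches were not recomputed. No paired analysis was possible because each dose was 1 library.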

Other observations

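Klhl24, Eif4g3 and Rhox5 were also called in opposite directions at the 2 doses, and were singled out after their values were seen. Klhl24 had log2 ratios of 0.63 at 5 ng/ml and -0.33 at 50 ng/ml. The translation factor gene Eif4g3 had -0.37 at 5 ng/ml and 0.42 at 50 ng/ml, and Rhox5 had -0.62 at 5 ng/ml and 0.46 at 50 ng/ml. None of these differences between doses was tested.

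The spread of the response among cells was measured at 30000 UMIs per cell. The variance of the 5-gene count over its mean was 1.30, 2.10 and 1.98 with rising dose (0, 5 and 50 ng/ml). These are the counts that chose the groups and are given as a description. No UMI of the 5 genes was found in 74.9%, 7.37% and 2.26% of cells with rising dose, and at full depth in 34.8%, 0.850% and 0.125%.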
